A study of Mus musculus with 12 samples.

Results

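The genes of the translation initiation and elongation factors were followed in neural progenitor cells with and without thyroid hormone. They were chosen by name, as the symbols of the deposited table that begin with Eif and a digit from 1 to 6 or with Eef and 1 or 2, and they are 66 of its 12774 symbols. The rule itself used no measured value, though it was set with earlier results of these data known. The cells are C17.2, a mouse neural progenitor line, in 2 stable lines that each carry a tagged thyroid hormone receptor: the receptor is TR alpha in C17.2a and TR beta in C17.2b, and the labels do not say whether a line is 1 clone. Each line was left untreated or given 1e-07 M T3 (triiodothyronine, the active hormone) for 6, 12 or 24 h. All cells, untreated ones too, had spent the 24 h before that in medium without serum. There was 1 library for each of the 12 combinations of line, treatment and time, and so a group has no second library. A level is given in RPM, for which every library was brought to the same total of tags.

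Initiation begins when eIF2 brings the initiator tRNA to the small ribosomal subunit, which eIF1, eIF1A, eIF3 and eIF5 hold ready, while the eIF4 proteins bring the capped mRNA. Kinases that phosphorylate eIF2 block its reactivation by eIF2B and lower general initiation, and the 4E-binding proteins block the cap-binding protein eIF4E unless mTOR phosphorylates them. eEF1A then delivers aminoacyl-tRNA to the ribosome, eEF2 moves the ribosome along, and eIF5A helps it through difficult stretches. Many mRNAs of this machinery are controlled in how often they are translated, which levels of mRNA do not show.

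The members fall into 8 groups by role. There were 8 genes of start codon selection and subunit joining, 15 of eIF2, its exchange factor eIF2B and the eIF2 kinases, 13 of eIF3, 16 of eIF4 with its binding proteins, 2 of eIF5A, 5 of eEF1 and 2 of eEF2. The remaining 5 carry the former symbols Eif2c1 to Eif2c5. Of these, 4 are the Argonaute genes Ago1 to Ago4, whose proteins act with small RNAs and not in initiation, and Eif2c5 is a long non-coding RNA in the RefSeq gene list. No member was listed as N/A in any library, and 62 of the 66 had at least 1 RPM in all 12. A test needed at least 1 RPM in 3 libraries, which 65 members passed for T3 and 64 for time. Eif4e1b, a cap-binding protein known from oocytes, failed in both, at 0.35 to 1.63 RPM, and Eif2c3 failed for time, at 0.36 to 1.54 RPM. Several members have near-identical copies, such as the Eef1a1 pseudogenes and the pair Eif2s3x and Eif2s3y, and whether tags were split between copies is not given in the sources used here.

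Each library held 7.12e+06 to 1.91e+07 tags, as read from the smallest step between its values, and 3 tags then equal 0.157 to 0.422 RPM. Of the markers fixed for progenitors, Vim lay at 1112 to 4941 RPM, Nes at 70.2 to 642 RPM and Sox2 at 62.0 to 306 RPM. Notch1 of that list lay at 20.3 to 74.5 RPM, but Fabp7 at 1.87 to 22.1 RPM and Msi1 at 0.0 to 4.35 RPM. Genes of other cell types were present too: Sox10 of the oligodendrocyte list lay at 135 to 759 RPM, but Mbp of that list at 0.54 to 2.88 RPM and Olig2 at 0.08 to 1.90 RPM. Col1a1 of the fibroblast list lay at 747 to 5353 RPM, but Dcn at 0.05 to 7.28 RPM and Pdgfra at 0.53 to 6.68 RPM. Of the astrocyte list Gfap stayed at 0.60 to 3.92 RPM and S100b at 36.1 to 59.3 RPM, and of the neuron list Snap25 at 0.28 to 1.57 RPM and Tubb3 at 44.5 to 576 RPM. The 24 h libraries differed from the earlier ones across the whole table, and the C17.2a T3 library of 24 h stood apart again from the other 3 of that time. Results that rest on it are therefore given with and without it.

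The members together took a larger share of all tags at 24 h. Their summed level was 1.36% to 1.66% of the tags in the 8 libraries of 6 and 12 h, 2.16% to 2.25% in 3 libraries of 24 h, and 1.89% in the C17.2a T3 library of 24 h. The ranges of early and late libraries did not overlap. The median gene of the whole table was higher at 24 h without T3 too, as given below, and no reference share is given here. The larger share is therefore no result about the set as a whole. The eEF1 genes summed to 4628 to 6196 RPM early and 5864 to 8411 RPM at 24 h, and the eEF2 pair of genes to 997 to 1779 RPM early and 1821 to 4143 RPM at 24 h. The eIF4 genes stayed closer, at 3075 to 3502 RPM early and 3676 to 4128 RPM late.

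**Figure D1:**
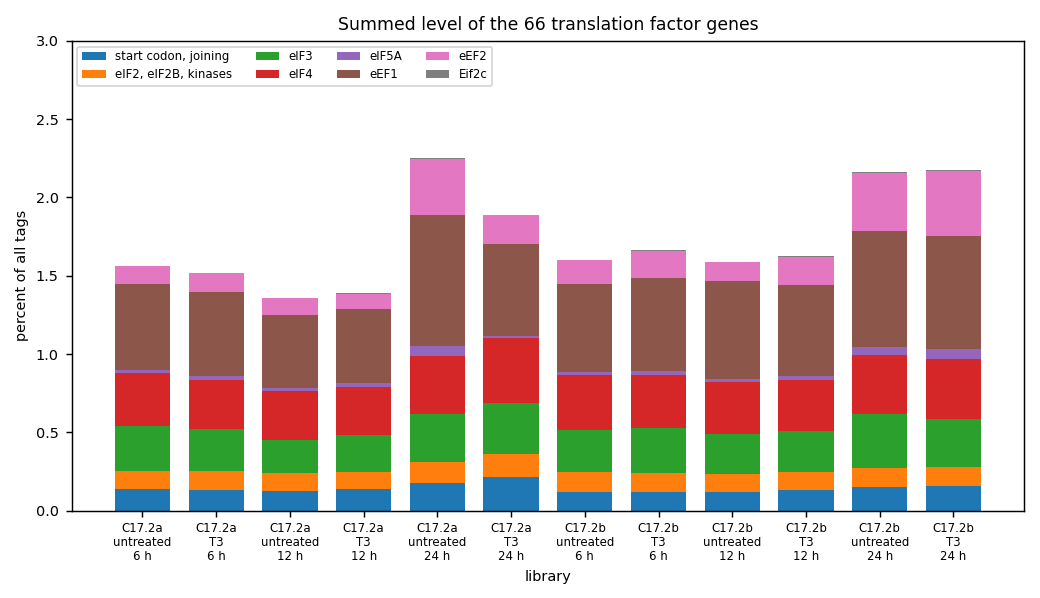
Stacked bars give the summed level of the 66 genes in each of the 12 libraries, as a percent of all tags, split by role group. The 4 libraries of 24 h are the tallest bars (1.89% to 2.25%), and the eEF2 segment is tallest in the 3 of them other than C17.2a T3.

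Time without hormone is given first. The question is which factors differ between 24 and 6 h in cells that never received T3. The fit used the 6 untreated libraries with line as a term, so a 24 h value rests on 1 library from each line. Of 64 members tested, 29 were higher at 24 h and 10 lower in limma at an adjusted p under 0.05, beside 43.0% of all genes higher and 13.1% lower. The median log2 change was 0.47 over the members and 0.40 over all genes. Whether the deposited scale or the RNA of most genes shifted between times was not tested, and the all-gene median does not tell them apart. With libraries scaled by median ratios, that median was -0.02 and the members' median 0.02, and 19 members were higher and 18 lower, beside 24.4% and 26.3% of all genes. Under both scalings the same 19 were higher and the same 10 lower, beside 24.3% and 13.1% of all genes. The members' shares, 29 of 64 before scaling and 19 of 64 under both, lie near those of the table and are no result about the set as a whole. The 10 called higher on the deposited scale only were Eef1g, Eif2ak2, Eif2b2, Eif3i, Eif4a1, Eif4a3, Eif4e, Eif4e2, Eif4e3 and Eif4h. The 8 called lower with median-ratio scaling and not on the deposited scale were Eef1d, Eif2a, Eif2b3, Eif3h, Eif3j, Eif4a2, Eif4enif1 and Eif4g2, and 12 members changed sign between the scalings. In the account by role, a gene rose or fell only where both scalings called it, and log2 changes are on the deposited scale. Counts within a role are to be read beside the 24.3% and 13.1% of all genes, and are no result about a role.

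**Figure D2:**
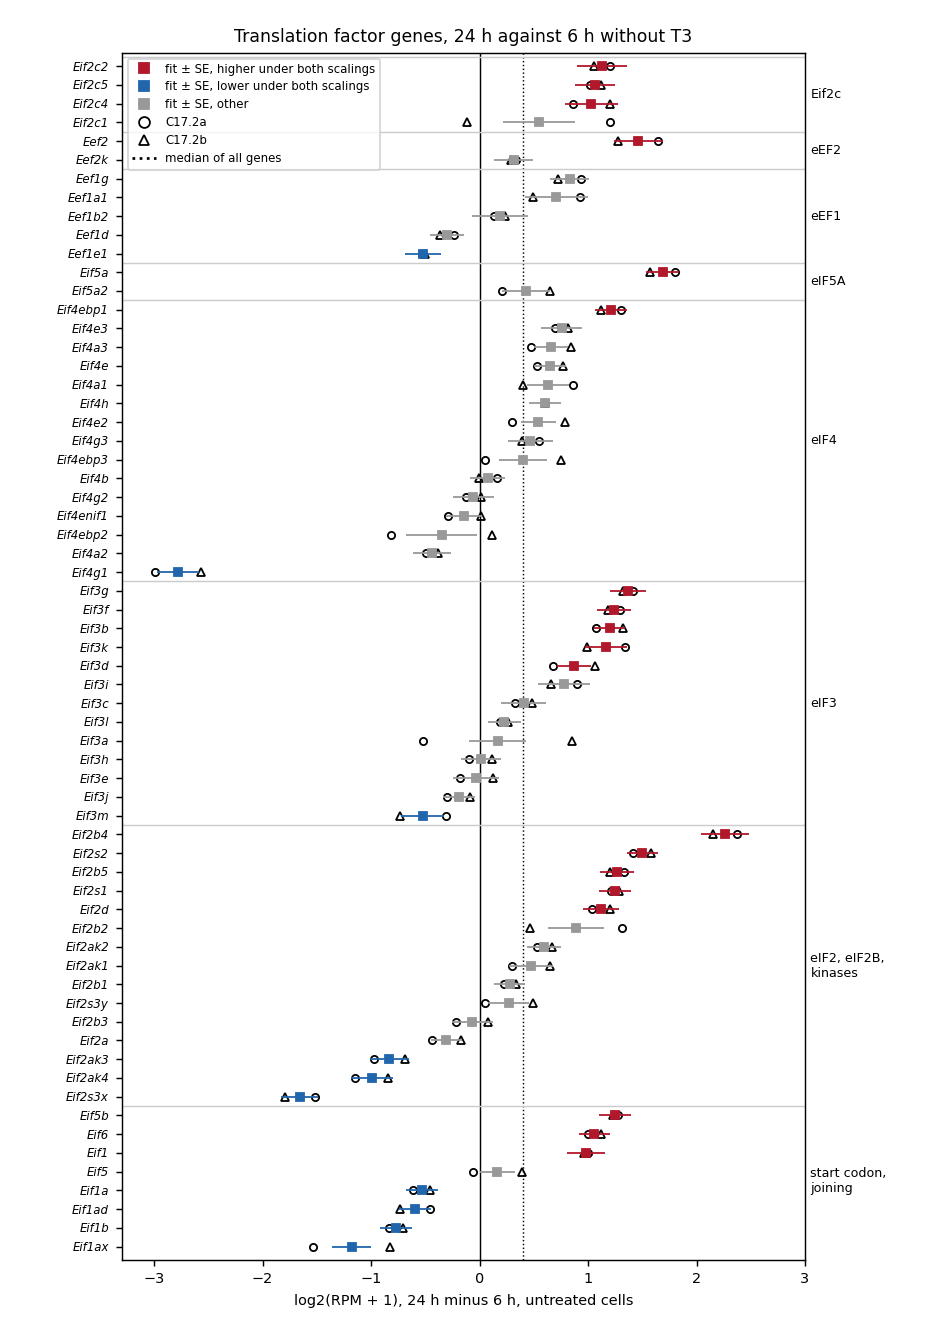
Squares show the fitted log2 change of each of 64 members from 6 to 24 h without T3, with SE bars, and open symbols show C17.2a (circles) and C17.2b (triangles) separately, grouped by role; the dotted line marks the all-gene median of 0.40. Red squares (19 genes) and blue squares (10 genes) are those called under both scalings, from Eif2b4 at 2.26 down to Eif4g1 at -2.78.

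Fewer members lay near their 6 h level at 24 h than at 12 h. From 6 to 12 h without T3, 56 of 64 members in C17.2a and 62 in C17.2b stayed within 1.5-fold, and with T3 59 and 62 did. From 6 to 24 h only 29 and 25 stayed within that limit without T3, and 30 and 27 with T3. The shares of all genes within that limit are not given here, so these counts are no result about the set. No change from 12 to 24 h was fitted. Over all 12 libraries, 22 of 65 members had all 4 values of 24 h above all 8 earlier values, beside 26.5% of all genes. Of the members, 4 had all late values below all early ones (Eif1ax, Eif1b, Eif2s3x and Eif4g1), beside 6.60% of all genes. Without the C17.2a T3 library of 24 h these counts were 33 and 7, beside 39.6% and 9.84% of all genes. Sums of marker genes were set side by side as well. The 3 oligodendrocyte markers used, nearly all of it Sox10, summed to 335 to 762 RPM at 6 and 12 h and to 136 to 328 RPM at 24 h, with no overlap. Early and late ranges overlapped for the 5 fibroblast markers, at 1290 to 3729 RPM and 2711 to 7318 RPM. They also overlapped for the progenitor list (1313 to 3062 and 1619 to 5744 RPM), the astrocyte list (43.3 to 57.3 and 36.7 to 60.5 RPM) and the neuron list (45.1 to 174 and 78.7 to 578 RPM). These 3 overlaps mostly describe 1 gene each. Over the 12 libraries the median was 2131 RPM for Vim beside 2482 RPM for the progenitor sum. It was 46.7 RPM for S100b beside 47.9 RPM for the astrocyte sum, and 94.1 RPM for Tubb3 beside 95.5 RPM for the neuron sum. The part of cell composition in the changes was not tested, and in bulk RNA fewer cells of a type and less RNA per cell cannot be told apart. Time also cannot be told apart from any difference in handling between the harvests.

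The sequences upstream of 6 members are shown here, because they lie where transcription of each begins. The 6 were chosen after their values were seen, as examples of genes that fell or rose and of an X- and Y-linked pair. They are the 250 bases before the RefSeq start on GRCm38.p6, a build other than the mm9 named in the submitters' processing notes, written 5′ to 3′ along the gene. Eif4g1 (chr16:20672477-20672726, plus strand), Eif2s3x (chrX:94212652-94212901, minus strand) and Eif1ax (chrX:159371928-159372177, plus strand) fell. Eif2s3y (chrY:1010345-1010594, plus strand) is the Y-linked copy of Eif2s3x. Eif2b4 (chr5:31193140-31193389, minus strand) and Eef2 (chr10:81176381-81176630, plus strand) rose. Capitals mark letters that match, on either strand, CACGTG (the E-box bound by Myc and its relatives), CCGGAAG (an ETS core), TGATGNAAN (the element bound by Atf4 with C/EBP proteins) or AGGTCA (the half-site of thyroid hormone receptors).
Eif4g1: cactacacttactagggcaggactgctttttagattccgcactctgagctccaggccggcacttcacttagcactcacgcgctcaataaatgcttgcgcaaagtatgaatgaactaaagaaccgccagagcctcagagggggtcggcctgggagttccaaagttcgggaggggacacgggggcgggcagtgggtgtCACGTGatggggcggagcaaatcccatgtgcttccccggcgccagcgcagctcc
Eif2s3x: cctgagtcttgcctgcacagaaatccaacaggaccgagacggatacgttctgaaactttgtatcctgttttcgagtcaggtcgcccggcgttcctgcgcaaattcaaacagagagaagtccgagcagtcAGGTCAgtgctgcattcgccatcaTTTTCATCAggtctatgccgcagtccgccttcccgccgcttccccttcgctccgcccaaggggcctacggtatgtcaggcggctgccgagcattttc
Eif2s3y: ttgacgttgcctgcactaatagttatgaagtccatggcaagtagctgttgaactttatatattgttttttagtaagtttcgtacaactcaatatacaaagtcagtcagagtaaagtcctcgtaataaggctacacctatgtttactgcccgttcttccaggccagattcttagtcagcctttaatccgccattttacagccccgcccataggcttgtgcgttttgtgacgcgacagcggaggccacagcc
Eif1ax: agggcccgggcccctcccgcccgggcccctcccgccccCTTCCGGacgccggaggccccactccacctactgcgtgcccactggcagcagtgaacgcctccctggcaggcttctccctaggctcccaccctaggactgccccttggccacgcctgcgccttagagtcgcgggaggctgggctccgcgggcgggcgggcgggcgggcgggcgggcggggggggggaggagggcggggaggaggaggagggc
Eif2b4: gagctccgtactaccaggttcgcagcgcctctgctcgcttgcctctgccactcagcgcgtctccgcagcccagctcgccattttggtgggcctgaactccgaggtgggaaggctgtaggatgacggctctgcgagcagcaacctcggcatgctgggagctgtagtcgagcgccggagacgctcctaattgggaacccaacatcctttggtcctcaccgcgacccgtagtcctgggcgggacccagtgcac
Eef2: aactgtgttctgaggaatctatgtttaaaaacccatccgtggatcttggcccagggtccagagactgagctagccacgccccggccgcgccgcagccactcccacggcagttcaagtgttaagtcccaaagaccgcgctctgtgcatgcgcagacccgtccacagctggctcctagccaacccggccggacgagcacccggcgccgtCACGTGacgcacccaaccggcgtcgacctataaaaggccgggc
The first entry of 52 of the 66 members was searched in this way. CACGTG occurred in 9 of the 52 (17.3%) against 6.05% of the 27025 genes with an entry, and CCGGAAG in 11 (21.2%) against 7.05%. AGGTCA occurred in 3 (5.77%) against 13.8%, and TGATGNAAN in 1 (1.92%), Eif2s3x, against 3.51%. Among members with an entry, CCGGAAG stood upstream of 4 of 9 that fell (Eif1ad, Eif1ax, Eif1b and Eif3m) and of 2 of 16 that rose (Eif3d and Eif3g), and CACGTG upstream of 2 of 9 and 3 of 16. The 27025 are all genes with an entry, whether or not they were measured in these cells. Shares over the genes tested are not given here, so the contrasts are no result about the members. These are matches of letters, with no test and no measure of binding.

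In the eIF4 group, which carries the mRNA to the ribosome, the scaffold Eif4g1 gave the largest fall of all members. Its untreated level in C17.2a was 111 RPM at 6 h, 185 RPM at 12 h and 13.1 RPM at 24 h, and in C17.2b 147, 180 and 23.9 RPM. With T3 it was 199, 135 and 12.4 RPM in C17.2a and 173, 139 and 41.4 RPM in C17.2b. All 4 late values lay under the lowest early one, 111 RPM. The log2 change without T3 was -2.78 (SE 0.20, n = 2 libraries a time; adjusted p = 1.61e-05 in limma), a 6.87-fold lower level. The other scaffolds were not called lower on the deposited scale. Eif4g2, which drives initiation without the cap-binding step, lay at 917 to 1111 RPM in 11 libraries and at 1367 RPM in C17.2a with T3 at 24 h. Its log2 change was -0.06 (SE 0.19), with a 95% interval of -0.48 to 0.36. Eif4g3, the second cap-dependent scaffold, went from 15.2 to 22.6 RPM in untreated C17.2a and from 21.6 to 28.6 RPM in untreated C17.2b, a change of 0.47 (SE 0.21, adjusted p = 0.0759 in limma) that missed the threshold.

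Eif4ebp1, the 4E-binding protein that mTOR controls, was the single member of the eIF4 group that rose under both scalings. Without T3 it went from 69.4 to 98.0 to 173 RPM in C17.2a and from 60.4 to 95.3 to 133 RPM in C17.2b at 6, 12 and 24 h. The log2 change from 6 to 24 h was 1.21 (SE 0.15, adjusted p = 1.54e-04 in limma). The other binding proteins were not called: Eif4ebp2 changed by -0.35 (SE 0.33) and Eif4ebp3 by 0.40 (SE 0.22). The helicases Eif4a1 (0.63, SE 0.19) and Eif4a3 (0.66, SE 0.16; a component of the exon junction complex), the cap-binding proteins Eif4e (0.65, SE 0.15), Eif4e2 (0.54, SE 0.16) and Eif4e3 (0.76, SE 0.19) and the helicase cofactor Eif4h (0.60, SE 0.15) were higher on the deposited scale only. With median-ratio scaling their changes were 0.07 to 0.30. Eif4a2, at 470 to 813 RPM, had a change of -0.44 (SE 0.17), which was not called on the deposited scale and was called lower with median-ratio scaling. Eif4b, a cofactor of the helicase, lay at 332 to 517 RPM and changed by 0.07 (SE 0.16).

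In the group of eIF2 and eIF2B, subunits of 1 complex went in opposite directions. Eif2s1, the alpha subunit that the kinases phosphorylate, rose from 126 to 294 RPM in untreated C17.2a and from 94.8 to 232 RPM in untreated C17.2b, by 1.25 (SE 0.14) on the log2 scale. Eif2s2, the beta subunit, rose from 99.2 to 266 RPM and from 80.6 to 243 RPM, by 1.498 (SE 0.14). Eif2s3x, the X-linked gene of the gamma subunit, fell from 476 to 165 RPM in C17.2a and from 632 to 181 RPM in C17.2b, by 1.66 on the log2 scale (SE 0.17; adjusted p = 6.66e-05 in limma). With T3 it lay at 518 to 568 RPM at 6 and 12 h and at 257 and 172 RPM at 24 h in C17.2a and C17.2b, with no overlap. Eif2s3y, the Y-linked gene for the same subunit, was at 14.4 to 26.9 RPM in all 12 libraries and changed by 0.27 (SE 0.19, adjusted p = 0.251 in limma). The difference between the X and Y copies was not tested. Eif2d, a factor that can deliver tRNA without eIF2, rose by 1.12 (SE 0.17). Eif2a, another factor outside the eIF2 complex, was at 134 and 152 RPM at 6 h and at 98.6 and 135 RPM at 24 h without T3, and its change of -0.31 (SE 0.15) was not called on the deposited scale and was called lower with median-ratio scaling.

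Of the 5 eIF2B subunits, Eif2b4 and Eif2b5 rose, beside 24.3% of all genes higher under both scalings. Eif2b4, the delta subunit, had the largest rise of all members. It lay at 6.66 to 12.98 RPM in the 8 early libraries and at 57.6, 54.5, 36.6 and 40.4 RPM at 24 h in C17.2a untreated, C17.2a T3, C17.2b untreated and C17.2b T3, with no overlap. Its log2 change without T3 was 2.26 (SE 0.22; adjusted p = 5.03e-05 in limma), or 4.80-fold. Eif2b5, the catalytic epsilon subunit, lay at 31.5 to 47.8 RPM early and 79.1 to 95.5 RPM late and rose by 1.27 (SE 0.16). Eif2b2 went from 38.7 to 97.6 RPM in C17.2a but from 32.0 to 44.5 RPM in C17.2b without T3, and its change of 0.89 (SE 0.26) was called on the deposited scale only. Without the C17.2a untreated library of 24 h that change was 0.35. Eif2b1 (0.28, SE 0.14) and Eif2b3 (-0.07, SE 0.19) were not called higher or lower on the deposited scale, and median-ratio scaling called Eif2b3 lower.

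Of the 4 eIF2 kinases, 2 fell, beside 13.1% of all genes lower under both scalings. Eif2ak4, the kinase GCN2 that senses uncharged tRNA, went from 31.3 to 13.6 RPM in untreated C17.2a and from 38.9 to 21.3 RPM in untreated C17.2b, a fall of 0.99 on the log2 scale (SE 0.19). Eif2ak3, the kinase PERK of the endoplasmic reticulum, went from 26.8 to 13.2 RPM and from 26.5 to 16.0 RPM, a fall of 0.83 (SE 0.18). With T3 the late values of these kinases were 33.2 and 20.3 RPM for Eif2ak4 and 22.9 and 19.8 RPM for Eif2ak3 in C17.2a and C17.2b, so the early and late ranges over all 12 libraries overlapped. Eif2ak2, the kinase PKR that double-stranded RNA activates, was higher on the deposited scale only (0.60, SE 0.16). Eif2ak1, the heme-regulated kinase, was not called under either scaling (0.48, SE 0.21).

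Among the factors of start codon selection and subunit joining, the eIF1 paralogs went in opposite directions and the 3 genes with an eIF1A-type domain fell. Eif1, which guards the choice of the start codon, rose from 484 to 969 RPM in untreated C17.2a and from 341 to 666 RPM in untreated C17.2b, by 0.98 (SE 0.18). Eif1b, its close paralog, fell from 194 to 109 RPM and from 212 to 130 RPM, by 0.77 on the log2 scale (SE 0.15). Eif1ax, the X-linked eIF1A gene, was at 116 to 143 RPM in the 8 early libraries and at 41.6 to 73.5 RPM in the 4 late ones. Its fall without T3 was 1.18 on the log2 scale (SE 0.18; adjusted p = 4.94e-04 in limma). Eif1a, the autosomal copy on chromosome 18, fell by 0.53 (SE 0.15) and Eif1ad, which has an eIF1A-like domain, by 0.60 (SE 0.15). Both had values in C17.2a with T3 at 24 h, 245 and 106 RPM, that lay within or above their early ranges. Eif5b, the GTPase that joins the ribosomal subunits, rose by 1.25 (SE 0.15), from 44.1 to 57.0 RPM early to 115 to 143 RPM late over all 12 libraries. Eif6, which keeps the subunits apart, rose by 1.06 (SE 0.14), from 79.1 to 114 RPM early to 195 to 275 RPM late. Eif5, the GTPase activator of eIF2, changed by 0.16 (SE 0.16), with a 95% interval of -0.19 to 0.52.

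Of the 13 genes of eIF3, the large scaffold of initiation, 5 rose and 1 fell, beside 24.3% and 13.1% of all genes under both scalings. Eif3g rose by 1.37 (SE 0.16), Eif3f by 1.24 (SE 0.16), Eif3b by 1.20 (SE 0.15), Eif3k by 1.17 (SE 0.20) and Eif3d by 0.87 (SE 0.15). Eif3b, a core subunit, showed this in every line and treatment: it lay at 76.3 to 120 RPM early and at 254, 210, 221 and 285 RPM at 24 h in C17.2a untreated, C17.2a T3, C17.2b untreated and C17.2b T3. Eif3f lay at 59.2 to 96.3 RPM early and 185 to 246 RPM late, and Eif3d at 67.4 to 89.6 RPM and 120 to 158 RPM. The late values of Eif3g and Eif3k overlapped the early ones through the C17.2a T3 library alone. Eif3m fell by 0.52 on the log2 scale (SE 0.20), with an adjusted p of 0.0461 in limma, just inside the threshold. Leaving out the C17.2b untreated library of 24 h gave -0.22 for Eif3m, and leaving out the C17.2a one gave -0.83. Eif3e, at 1052 to 1757 RPM, changed by -0.03 (SE 0.21), Eif3h, at 271 to 449 RPM, by 0.01 (SE 0.18) and Eif3l, at 122 to 237 RPM, by 0.23 (SE 0.15). For Eif3a, the largest subunit, the lines differed in sign: it went from 251 to 175 RPM in untreated C17.2a and from 148 to 268 RPM in untreated C17.2b, and that difference was not tested.

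Among the elongation factors Eef2 rose, and no eEF1 gene rose under both scalings. Eef2, the translocase, went from 1118 to 1063 to 3500 RPM in untreated C17.2a and from 1525 to 1198 to 3704 RPM in untreated C17.2b. With T3 its 24 h level was 1802 RPM in C17.2a and 4118 RPM in C17.2b. All late values lay above the highest early one, 1754 RPM, though that of C17.2a with T3 only just. The log2 change without T3 was 1.46 (SE 0.23; adjusted p = 4.88e-04 in limma). Eef2k, the kinase that inactivates eEF2, lay at no more than 29.9 RPM and changed by 0.31 (SE 0.18). Eef1a1, the carrier of aminoacyl-tRNA, went from 2416 to 4597 RPM and from 2311 to 3244 RPM without T3, a change of 0.71 (SE 0.29, adjusted p = 0.0576 in limma) that missed the threshold. Of the exchange factor subunits, Eef1g was higher on the deposited scale only (0.83, SE 0.18), Eef1b2 changed by 0.19 (SE 0.26) and Eef1d by -0.30 (SE 0.16). Eef1e1, a scaffold protein of the tRNA synthetase complex, fell by 0.52 on the log2 scale (SE 0.17).

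Eif5a rose and its paralog Eif5a2 was not called. Eif5a went from 175 to 214 to 613 RPM in untreated C17.2a and from 174 to 209 to 520 RPM in untreated C17.2b, a log2 change of 1.69 (SE 0.15; adjusted p = 3.32e-05 in limma). With T3 it reached 592 RPM at 24 h in C17.2b but lay at 144 RPM in C17.2a, under every other value of the gene. Eif5a2 was at 5.59 to 17.18 RPM and changed by 0.43 (SE 0.22). Among the genes under former Eif2c symbols, Eif2c2 (Ago2, the slicing Argonaute) rose by 1.13 (SE 0.23), Eif2c4 by 1.03 (SE 0.25) and Eif2c5 by 1.07 (SE 0.19), all from low levels. Eif2c4 lay at 0.44 to 1.06 RPM early, where few tags stand behind a value, and at 1.31 to 3.22 RPM late. Of the untreated libraries it reached 1 RPM only in those of 24 h and, at 1.01 RPM, in C17.2a at 6 h. It thus entered the test through its late values, and its call is not independent of that filter.

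**Figure D3:**
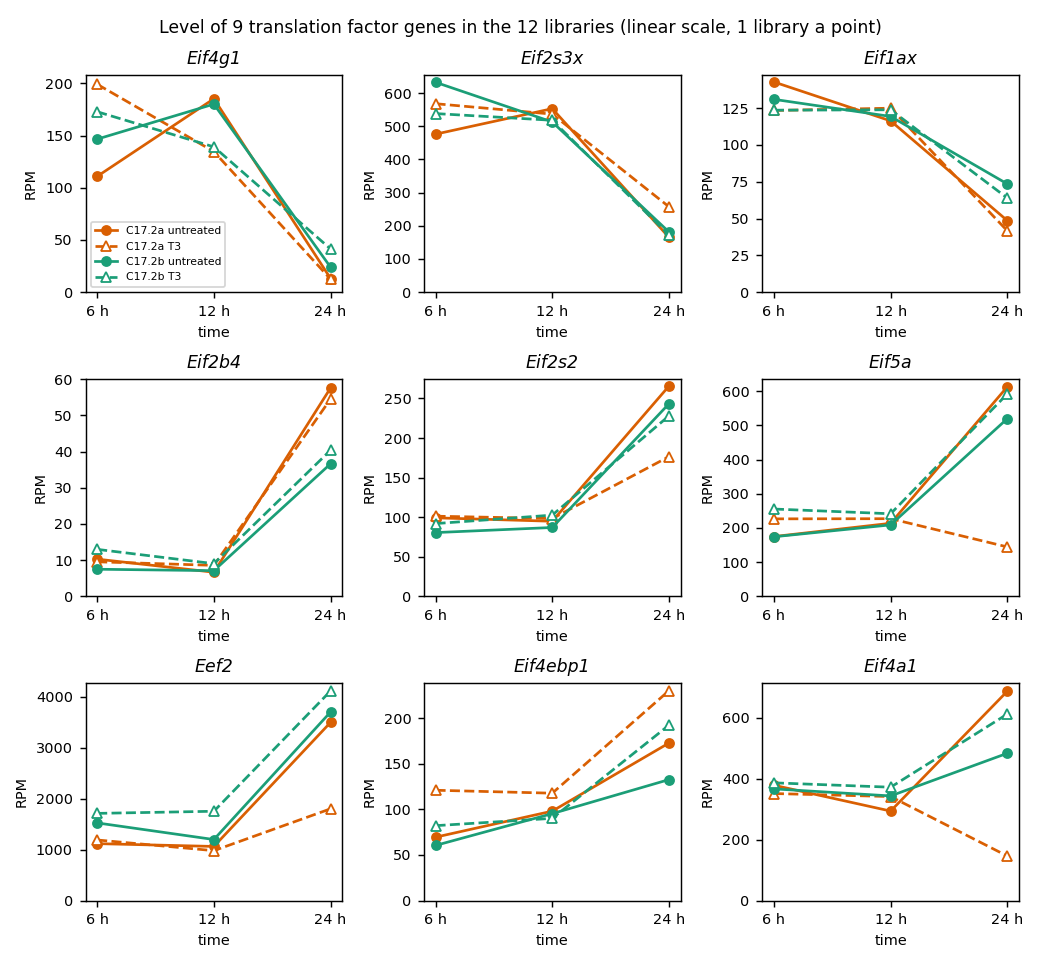
Each panel plots the RPM of 1 gene against time on a linear axis from 0, with 1 library a point; colours are the lines, filled circles with solid lines untreated cells and open triangles with dashed lines T3. Eif4g1, Eif2s3x and Eif1ax drop between 12 and 24 h in all 4 series, Eif2b4, Eif2s2, Eef2 and Eif4ebp1 are higher at 24 h in all 4, and Eif5a and Eif4a1 are lower at 24 h in C17.2a with T3 (144 and 146 RPM) than in the other 3.

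Other settings bear on which of these calls hold. The share of all genes called in every setting is not given here, so the counts below are no result about the set as a whole. In the fit given above and in each of 15 alternatives to it, 1 of them chosen after seeing the data, 15 members were called higher: Eef2, Eif1, Eif2b4, Eif2b5, Eif2d, Eif2s1, Eif2s2, Eif3b, Eif3d, Eif3f, Eif3g, Eif4ebp1, Eif5a, Eif5b and Eif6. In the same 16 settings 6 were called lower: Eif1ax, Eif1b, Eif2ak3, Eif2ak4, Eif2s3x and Eif4g1. Of the calls under both scalings, those that turned on 1 library were Eef1e1 (-0.59 to -0.44 with 1 library left out), Eif1a (-0.66 to -0.41), Eif1ad (-0.72 to -0.47), Eif2c4 (0.86 to 1.03) and Eif3m. Without the C17.2b untreated library of 6 h all 5 of these calls were lost. Without the C17.2a one of 6 h the calls of Eef1e1, Eif1a and Eif3m were lost, without the C17.2a one of 24 h those of Eef1e1 and Eif1a, and without the C17.2b one of 24 h those of Eef1e1 and Eif3m. The genes called higher on the deposited scale only, all but Eef1g, also lost their call with 1 untreated library left out: Eif2ak2, Eif3i, Eif4a1, Eif4a3, Eif4e, Eif4e2, Eif4e3 and Eif4h without the C17.2b one of 6 h, Eif2ak2, Eif2b2 and Eif4a1 without the C17.2a one of 6 h, Eif2b2, Eif3i and Eif4a1 without the C17.2a one of 24 h, and Eif2ak2, Eif4a3 and Eif4e2 without the C17.2b one of 24 h. Eif2c2, Eif2c5 and Eif3k were called without T3 but not when all 12 libraries entered the fit (adjusted p = 0.678, 0.241 and 0.0562 in limma). With all libraries but the C17.2a T3 one of 24 h, a setting chosen after seeing the data, these 3 were called again. The GC content of transcripts, taken from the GENCODE M21 annotation, moved with the time change: across genes, the Spearman correlation of the log2 change with GC was 0.30 over 63 members and 0.26 over 9490 genes, all from the same libraries. Members that rose had a median GC of 52.3% and those that fell 47.1%, with 50.7% over all genes tested. The part of GC in the calls was not tested.

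The hormone was compared next: whether T3 changes these genes in both lines, in 1 of them or at 1 time. Each of the 6 pairs joins the T3 and the untreated library of 1 line and time. For the response shared by all 6, 0 of 65 members were called higher and 0 lower in limma, beside 4.09% and 2.35% of all genes, and voom on implied tags called 0 as well. At an unadjusted p under 0.05 there were 3 members (4.62%), against 18.1% of all genes. The median log2 change of the members was 0.03, with all of them between -0.52 and 0.39, and the 95% interval of a member's change had a median half-width of 0.30. In C17.2a 0 members were called higher and 0 lower, beside 0.908% and 0.463% of all genes, with 6 members at an unadjusted p under 0.05, against 16.5% of all genes. In C17.2b the counts were 0 and 0, beside 2.25% and 0.860%, with 2 members at an unadjusted p under 0.05, against 13% of all genes. None was called at 6, 12 or 24 h, where 0.161%, 0.492% and 1.06% of all genes were called in either direction and 1, 0 and 6 members had an unadjusted p under 0.05, against 7.61%, 7.92% and 15.9% of all genes. The difference between lines gave no call, for members or for any gene (0.00%), and likewise the difference between 24 and 6 h (0.00%). At an unadjusted p under 0.05 there were 3 and 2 members for these differences, against 5.51% and 5.61% of all genes.

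The 5 members with the smallest p in the shared response are given for their values. Eif4ebp1 was at 69.4, 98.0 and 173 RPM without and 121, 118 and 230 RPM with T3 in C17.2a at 6, 12 and 24 h, and at 60.4, 95.3 and 133 RPM without and 82.0, 90.1 and 192 RPM with T3 in C17.2b. It was thus higher with T3 in 5 of 6 pairs. Its log2 change was 0.39 (SE 0.12, n = 6 pairs; adjusted p = 0.0910 in limma), with a 95% interval of 0.13 to 0.65. Eef1d, a subunit of the eEF1 exchange factor, was higher with T3 in all 6 pairs, at 42.2 to 57.6 RPM against 33.4 to 46.4 RPM. Its change was 0.31 (SE 0.10; adjusted p = 0.114 in limma). Eif3a (0.30, SE 0.11), Eif3j, a loosely bound eIF3 subunit (0.20, SE 0.09), and Eif2ak2 (-0.21, SE 0.10) had adjusted p of 0.177, 0.301 and 0.321 in limma. Of 65 members, 4 had a ratio above 1 in all 6 pairs (Eef1d, Eif3a, Eif3j and Eif2c3) and 0 a ratio below 1 in all, beside 8.23% and 6.05% of all genes. In C17.2a the smallest p belonged to Eif1a (0.47, SE 0.16), Eif4ebp1 (0.49, SE 0.17), Eif3g (-0.95, SE 0.33), Eif4g3 (0.46, SE 0.17) and Eif2b3 (0.41, SE 0.16). In C17.2b it belonged to Eif3b (0.34, SE 0.12), Eif2b5 (0.32, SE 0.13), Eif2b4 (0.39, SE 0.18), Eif3a (0.34, SE 0.16) and Eef1d (0.29, SE 0.14).

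Leaving out the C17.2a pair of 24 h ended the count of 0. Without it 4 members were called in the shared response, beside 9.14% of all genes higher and 5.81% lower. Eif4e2, a cap-binding protein that represses translation, was lower with T3 by 0.41 on the log2 scale (SE 0.09; adjusted p = 0.0113 in limma). It was lower with T3 in all 5 remaining pairs, for example at 102 against 65.9 RPM at 6 h in C17.2a and 129 against 86.6 RPM at 24 h in C17.2b, and higher in the pair left out, at 125 against 163 RPM. Eif4a2, a helicase of the cap complex, was lower by 0.29 (SE 0.08, adjusted p = 0.0247 in limma). It was at 765 against 548 RPM and 629 against 470 RPM in C17.2a at 6 and 12 h. In C17.2b it was at 813 against 741, 767 against 665 and 624 against 533 RPM at 6, 12 and 24 h. In the pair left out Eif4a2 was higher with T3 too, at 543 against 691 RPM. Eif4ebp1 was higher by 0.39 (SE 0.11; adjusted p = 0.0396 in limma) and Eif5a by 0.28 (SE 0.08; adjusted p = 0.0417 in limma). For Eif5a the sign turned, since its shared change over all 6 pairs was -0.11 (SE 0.31). With the 6 and 12 h pairs only, a choice made after seeing the data, Eif4e2 and Eif4a2 remained called (adjusted p = 0.0339 and 0.0378 in limma), beside 7.89% of all genes higher and 5.56% lower. In C17.2b the fit without that C17.2a pair called Eif3b higher (0.34, SE 0.10; adjusted p = 0.0458 in limma), beside 7.59% of all genes higher and 3.74% lower. The change of Eif3b was the same with that pair (0.34, SE 0.12), and only the estimate of the spread, which the lines share, became smaller. Eif3b was higher with T3 in all 3 pairs of that line, at 87.7 against 111, 76.3 against 95.5 and 221 against 285 RPM at 6, 12 and 24 h.

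**Figure D4:**
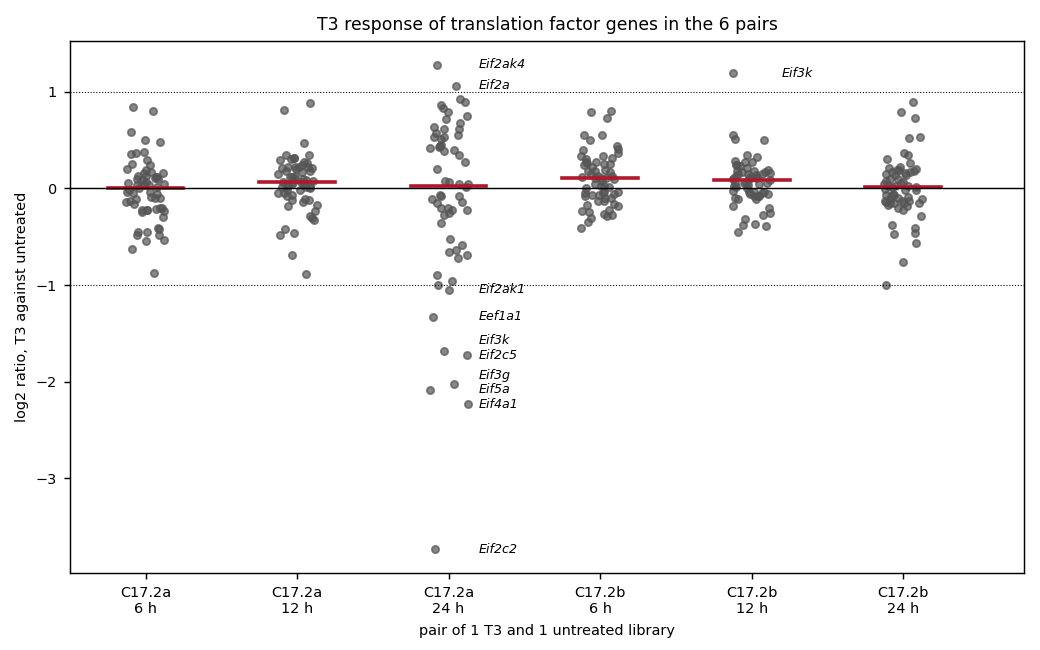
Each point is the log2 ratio of T3 to untreated RPM for 1 member in 1 of the 6 pairs, for members that reach 50 implied tags there; red bars are medians, dotted lines mark 2-fold, and genes past 2-fold are named. In the C17.2a pair of 24 h the points spread from -3.73 to 1.28, and in the other 5 pairs they lie between -0.995 and 1.19.

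Single pairs show the same contrast, with no replicate behind them and no test. A ratio of 2-fold or more, among genes that reach 50 implied tags, was found for 0 of 63 members in C17.2a at 6 h, beside 3.76% of all genes, and for 0 of 63 at 12 h, beside 3.80%. In C17.2b it was found for 0 of 63 at 6 h, beside 5.20%, for 1 of 63 at 12 h, beside 4.94%, and for 0 of 63 at 24 h, beside 6.81%. The single gene was Eif3k, at 38.6 RPM without and 88.4 RPM with T3. Its untreated value was the lowest of the 12 libraries, whose others began at 61.8 RPM. In C17.2a at 24 h 2 of 62 members were past 2-fold higher and 8 lower, beside 6.51% and 19.4% of all genes. The SD of the members' log2 ratios was 0.93 in that pair and 0.25 to 0.33 in the other 5.

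The 8 low ratios of the C17.2a pair of 24 h came from genes of several roles. Eif2c2 went from 12.6 RPM untreated to 0.72 RPM with T3 (log2 ratio -3.73), Eif4a1 from 687 to 146 RPM (-2.23), Eif5a from 613 to 144 RPM (-2.08) and Eif3g from 66.9 to 16.2 RPM (-2.03). Eif2c5 went from 35.0 to 10.4 RPM (-1.72), Eif3k from 199 to 61.8 RPM (-1.68), Eef1a1 from 4597 to 1831 RPM (-1.33) and Eif2ak1 from 18.8 to 8.95 RPM (-1.05). Eif4a1 illustrates how the other pairs differ: its ratios there were -0.11 to 0.34, and its 10 values other than 687 and 146 RPM ran from 294 to 612 RPM. Eef2 lay just short of the limit, from 3500 to 1802 RPM (-0.96). The 2 high ratios were those of Eif2ak4, from 13.6 to 33.2 RPM (1.28), and Eif2a, from 98.6 to 206 RPM (1.06). The ratios in this pair moved with transcript GC, with a Spearman correlation of -0.28 over 61 members and -0.36 over 8694 genes, while in the C17.2b pair of 24 h the correlations were 0.36 over 62 members and 0.11 over 8526 genes. The part of GC in the ratios was not tested. The untreated C17.2a library of 24 h enters both these ratios and the comparison of times.

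Lists of genes that act beside these factors were described for the same 2 comparisons. The lists were fixed with earlier results of these data known, so their counts are descriptions and not support. Over time without T3, 43.0% of all genes were higher and 13.1% lower, with 24.3% and 13.1% under both scalings, and a list's share near these is no result about that list. Of 16 genes of the eIF2 phosphatase and Atf4 target list tested, 13 were higher at 24 h without T3 and 0 lower, 12 of them under both scalings, with a median log2 change of 1.59 beside 0.40 over all genes. Shmt2 (2.59, SE 0.14), a serine hydroxymethyltransferase of mitochondria, went from 41.9 to 275 RPM in C17.2a and from 42.8 to 246 RPM in C17.2b. Trib3 (2.29, SE 0.16), a pseudokinase induced by stress, Phgdh (2.05, SE 0.15), the first enzyme of serine synthesis, and Slc3a2 (2.05, SE 0.16), the heavy chain of amino acid transporters, rose as well. Of 22 cytosolic aminoacyl-tRNA synthetases, which load tRNAs, 17 were higher and 1 lower, with 12 and 1 under both scalings and a median of 1.002. The smallest p belonged to Cars (2.72, SE 0.21), Lars (1.58, SE 0.14), Nars (1.54, SE 0.15) and Iars (1.12, SE 0.14).

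Of 7 genes of enzymes that modify the factors, 3 were higher and 1 lower, with 2 and 1 under both scalings. Dhps and Dohh act in turn to make hypusine on eIF5A: Dhps rose by 2.09 (SE 0.26) from 0.39 and 0.84 RPM, levels of few tags, to 5.31 and 6.38 RPM, whereas Dohh fell by 1.75 on the log2 scale (SE 0.16), from 277 to 77.1 RPM in C17.2a and from 347 to 109 RPM in C17.2b. Both 6 h values of Dhps lay under the 1 RPM of the filter, which that gene passed through later libraries. Dph3, of the pathway that makes diphthamide on eEF2, rose by 1.78 (SE 0.22). Of 10 genes of termination, recycling and reinitiation 3 were higher and 3 lower, with 2 and 3 under both scalings, among them Abcf1 (1.77, SE 0.20), which binds eIF2, and Gspt2 (-0.79, SE 0.22), a release factor. Of 7 poly(A)-binding proteins and partners 4 were higher and 0 lower, 2 of them under both scalings: Pabpc1 (1.18, SE 0.18) and its inhibitor Paip2 (1.17, SE 0.21). Of 11 regulators of eIF4F and its kinases 4 were higher and 1 lower, with 2 and 1 under both scalings, Gigyf1 (1.56, SE 0.21), a partner of Eif4e2, and Cyfip1 (1.24, SE 0.23), a cap complex repressor, being the 2 higher ones. Of 14 mTOR pathway genes 8 were higher and 1 lower, with 4 and 1 under both scalings, led by Tbc1d7 (1.84, SE 0.25) and Sesn1 (1.58, SE 0.25). Of 8 mitochondrial translation factors 3 were higher and 1 lower, with 1 and 1 under both scalings: Gfm2 (1.07, SE 0.20) and Tufm (-0.80, SE 0.22). The call of Tufm was lost without the C17.2a untreated library of 6 h or that of 24 h, that of Gspt2 without the C17.2b one of 6 h, and that of Gigyf1 with all 12 libraries.

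With T3, of 97 genes of these lists tested, 2 were called higher and 1 lower in the shared response, beside 4.09% and 2.35% of all genes. Ddit4, an inhibitor of mTOR, was at 6.22 to 13.6 RPM without and 13.2 to 36.4 RPM with T3, and higher with T3 in each of the 6 pairs. Its change of 1.05 (SE 0.16; adjusted p = 0.0051 in limma) was called in all 14 alternatives. Mknk1, a kinase of eIF4E, was at 6.75 to 12.5 RPM without and 9.70 to 18.5 RPM with T3, a change of 0.50 (SE 0.12; adjusted p = 0.0390 in limma). Phgdh was lower with T3 by 0.31 on the log2 scale (SE 0.08; adjusted p = 0.0410 in limma), and lower in 6 of 6 pairs. With median-ratio scaling its call was lost (adjusted p = 0.0563 in limma). The calls of Mknk1 and Phgdh each held in 7 of 14 alternatives, and each was lost when any 1 of the 5 pairs other than C17.2a at 24 h was left out. No other gene of the 8 lists was called for T3.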

How the data were processed

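The authors deposited 1 table of 12774 gene symbols with 12 columns of RPM, for which each library was brought to the same total of tags, a unit read from the values. PolyA RNA was reverse-transcribed, per the labels' protocols. Per the submitters' processing notes the build was mm9. The aligner, the assignment of tags to genes and the filters are not given in the sources used here. N/A was read as 0. The smallest step between values, what 1 tag is worth, gave the depth, from 7.12e+06 to 1.91e+07 tags, and 89.0% to 93.8% of low values were whole multiples of it within 0.0055 RPM. Whole tags were therefore not recovered for all values, and the floor of 3 tags covers counting error only.

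Tests were run with limma 3.58.1 (R 4.3.3) on log2(RPM + 1), using eBayes with a trend. A gene entered a fit when 3 of its libraries or more reached 1 RPM, which 10577 genes did for T3 and 10192 for time, and Benjamini-Hochberg adjustment over them was read at 0.05. A pseudocount understates changes of low genes. The plan allowed for counts too, and the RPM unit decided for limma. The T3 and untreated libraries of 1 line and time formed a block, paired by their labels, with 5 residual degrees of freedom for the shared response, 4 by line and 3 by time. Line was a term for time without T3 (2 degrees of freedom). Nothing says that libraries came from separate cultures, so p-values measure the spread between these libraries. Single pairs were described with a prior of 2 tags. The fit was also run on simulated data with a fixed spread and, apart from planted changes, no difference between lines, times or pairs. That setting is unlike these data and its outcome is not given here, so it is no check of the calls.

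Named genes were, in each role group, the called members and those of highest mean, the 5 smallest p where fewer than 5 passed, all members past 2-fold in a single pair, and up to 4 genes by smallest p of each list beside them. Members, lists and rules were chosen with earlier results of these data known. A marker gene of these lists is not reported here. Promoters came from RefSeq tables and GC content from GENCODE M21 transcripts.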

Additional observations from a re-analysis of the deposited data

How the results depend on the processing

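The settings tried were scaling by median ratios, a filter at 5 RPM or none, pseudocounts of 0.5 and 5, voom on implied tags, no block, each pair or library left out, each line alone, all 12 libraries or time in hours as a number for the time comparison, and other limits for single pairs. For time without T3, median-ratio scaling gave 19 members higher and 18 lower in place of 29 and 10. The shares of all genes called with 1 untreated library left out are not given here. The counts that follow for those fits are therefore no result about the set as a whole. With 1 untreated library left out, 20 to 31 members were higher and 6 to 11 lower, the 6 without the C17.2b untreated library of 6 h. For T3, leaving out 1 pair gave 0 to 2 members higher and 0 to 2 lower in the shared response, and 0 to 1 higher in C17.2b, with the highest counts without the C17.2a 24 h pair. The 6 and 12 h pairs only, a setting chosen after seeing the data, gave 2 lower. Eif5a turned from -0.11 to 0.28 without the C17.2a 24 h pair (-0.24 to 0.28 over the pairs left out in turn) and to 0.30 with the 6 and 12 h pairs only. Without the replicate block of pairs, 0 members were called for T3 in the shared response or in a line, as with it, while over all genes the shared response then had 171 higher and 69 lower in place of 433 and 249. The cause of these differences was not tested. Depth and the single library a group limit what could be seen: the 95% interval of a member's shared T3 change had a median half-width of 0.30 on the log2 scale.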
